A study of Mus musculus with 8 samples.

Results

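The mitochondrial protein import machinery was taken as the protein-coding genes whose GENCODE M21 symbol begins with Timm or Tomm, together with Samm50, Pam16, Dnajc19, Chchd4, Gfer, Pmpca, Pmpcb, Grpel1, Mtx1 and Mtx2. That rule found 36 genes among the 45706 gene identifiers of the deposited table, 16 by a Timm symbol, 10 by a Tomm symbol and 10 by name. Transcripts were measured by RNA sequencing of whole hearts from 8-week-old male mice. Conditional knockout hearts (cKO, n = 4) carried Elmsan1 fl/fl and aMHC-Cre+/-, floxed hearts (n = 2) carried Elmsan1 fl/fl without Cre, and Cre hearts (n = 2) carried aMHC-Cre+/- without floxed alleles. The aMHC promoter drives Cre recombinase in cardiomyocytes, so the other cells of these hearts keep Elmsan1, which encodes a scaffold of the MiDAC histone deacetylase. The comparisons address how import transcripts differ once this gene is deleted in cardiomyocytes, and whether either control group alone gives the same difference.

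Almost all mitochondrial proteins are encoded in the nucleus, made in the cytosol and imported. Receptors and the channel of the TOM complex bring them through the outer membrane, after which the TIM23 complex and its motor pull proteins with a cleavable presequence into the matrix, small TIM chaperones escort carrier proteins to the TIM22 complex, and the SAM complex inserts outer membrane barrels. A disulfide relay traps small proteins in the intermembrane space, and a matrix peptidase removes presequences. Heart muscle is among the tissues richest in mitochondria.

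Library totals ranged from 17509564 to 25833259 estimated counts, and levels are given in CPM (counts relative to library size, with library sizes adjusted by the trimmed mean of M values). Elmsan1 itself was at 12.0 to 15.5 CPM in cKO hearts and at 25.3 to 28.6 CPM in control hearts (log2 fold change -0.89, SE 0.11; edgeR adjusted p = 8.94e-05). All 10 cardiomyocyte markers checked were well above 0 in every heart, with a lowest value of 488 CPM. Their summed level was 60240 to 67900 CPM in cKO and 61060 to 66970 CPM in controls. This sum hides shifts of single markers, with 4 of 10 called higher and 3 lower. In all cKO hearts 4 lay above all controls and 5 below. The 4 called higher, Myl2, Mb, Tnni3 and Myl3, have longest annotated transcripts of 889 to 1125 bp. Summed endothelial markers (8 genes, 6 higher and 1 lower) were at 1230 to 1551 CPM in cKO against 872 to 975 CPM in controls, and summed macrophage markers (8 genes, 6 higher) at 336 to 434 against 216 to 273 CPM. Fibroblast markers (2 of 8 higher) and smooth muscle and pericyte markers (none of 8 called) overlapped between the groups, at 1043 to 1497 against 793 to 1134 CPM and at 574 to 982 against 655 to 745 CPM. No marker was at 0 in any heart. The part of these cell types in the import results was not tested, and in whole hearts fewer cells of a type and less RNA per cell cannot be told apart.

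Of the 36 genes, 34 were expressed highly enough to be tested. Tomm20l, a relative of the receptor gene Tomm20, had 1 count in 1 floxed heart, and Timm8a2, a relative of Timm8a1, had 0 counts in every heart. The 34 tested genes had between 151 and 6037 counts in each heart. With cKO hearts set against the average of both control groups, 14 rose (41.2%) and 7 fell (20.6%) at an adjusted p under 0.05 (edgeR's quasi-likelihood test, Benjamini-Hochberg over all 15289 genes tested). Of all genes tested, 25.6% were called higher and 26.5% lower in the same contrast, 52.1% together. The median log2 fold change was 0.15 over the 34 genes and 0.04 over all genes. All 4 cKO hearts lay above all 4 controls for 15 import genes and below them for 6, where 23.4% and 25.9% of all genes did so.

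**Figure D1:**
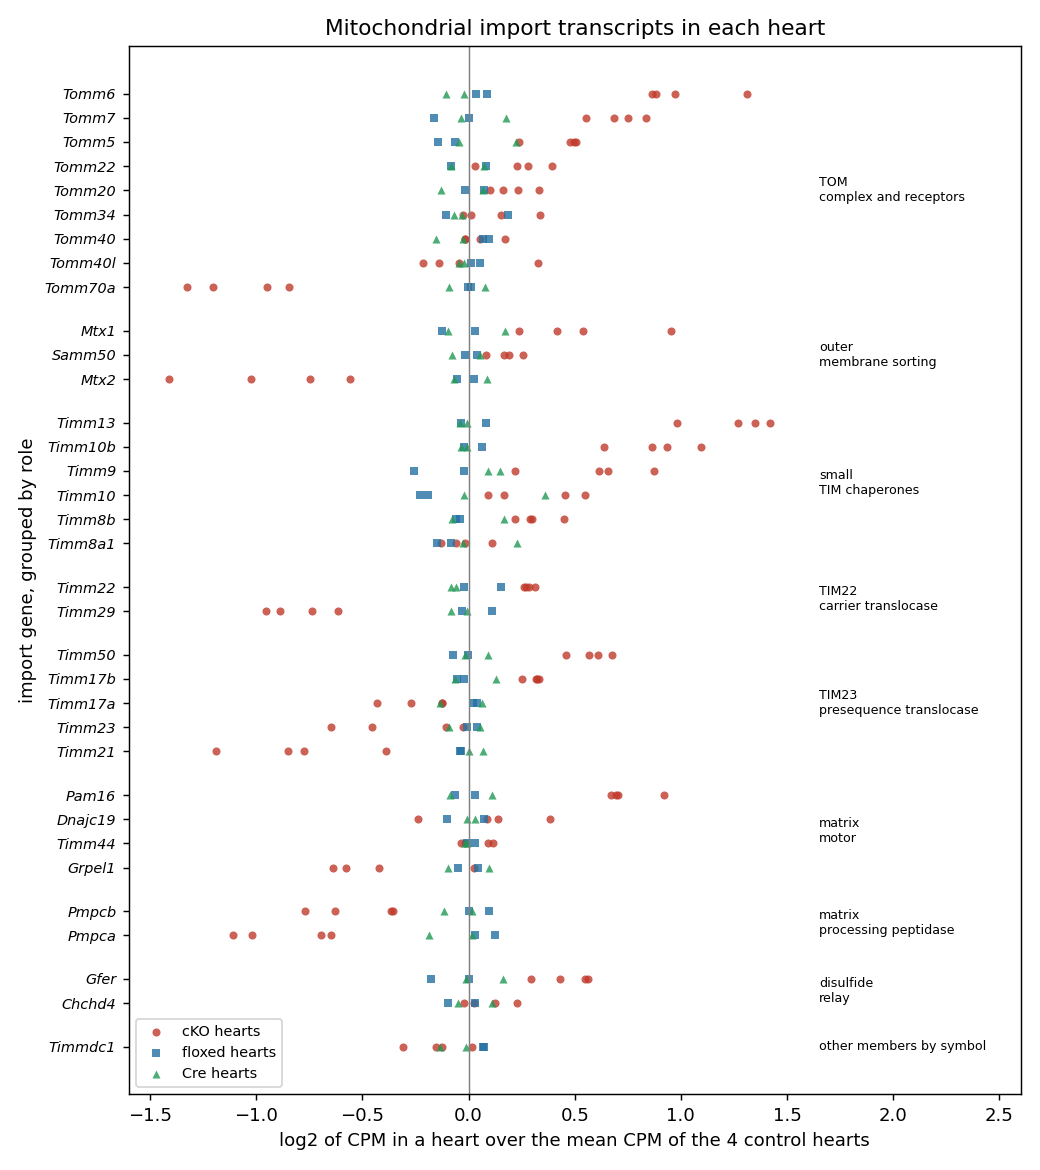
Level of each import gene in each heart, as the log2 of its CPM over the mean CPM of the 4 control hearts (horizontal axis), with genes grouped by role (vertical axis). Circles are cKO hearts, squares floxed hearts and triangles Cre hearts. Tomm6, Tomm7, Timm13, Timm10b and Pam16 lie to the right of all controls in every cKO heart, and Tomm70a, Mtx2, Timm29, Timm21, Pmpca and Pmpcb to the left.

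The direction differed between genes of the same complex, and transcript length went along with it. Over the 34 genes Spearman's rho of the log2 fold change was -0.53 with the longest annotated transcript and 0.45 with its GC content, and over 13744 tested coding genes it was -0.40 and 0.34; genes share the same 8 libraries and are no independent replicates. Among import genes with transcripts under 1500 bp 6 of 8 rose and none fell, where 60.7% of coding genes of that length were called higher and 4.58% lower. From 1500 to 3000 bp 7 of 14 rose and 2 fell, against 31.9% and 17.7%. At 3000 bp and over 1 of 12 rose and 5 fell, against 16.4% and 37.9%. Each contrast was therefore also fitted with an offset that removes, library by library, smooth trends with length and GC content. Trends of technical origin and trends that go with genotype are removed alike and cannot be told apart here. With it 9 import genes were called higher and 8 lower (20.7% and 24.3% of all genes), and the median log2 fold change was 0.02. Of the 14 rises 7 stayed called with the offset, and of the 7 falls 6 did. Calls of the cell type markers changed too, with 0 of 10 cardiomyocyte markers then higher and 4 lower. Macrophage markers called higher went from 6 to 4 of 8, while endothelial markers stayed at 6 of 8. Fibroblast markers went from 2 to 3 of 8, and no smooth muscle and pericyte marker was called.

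**Figure D2:**
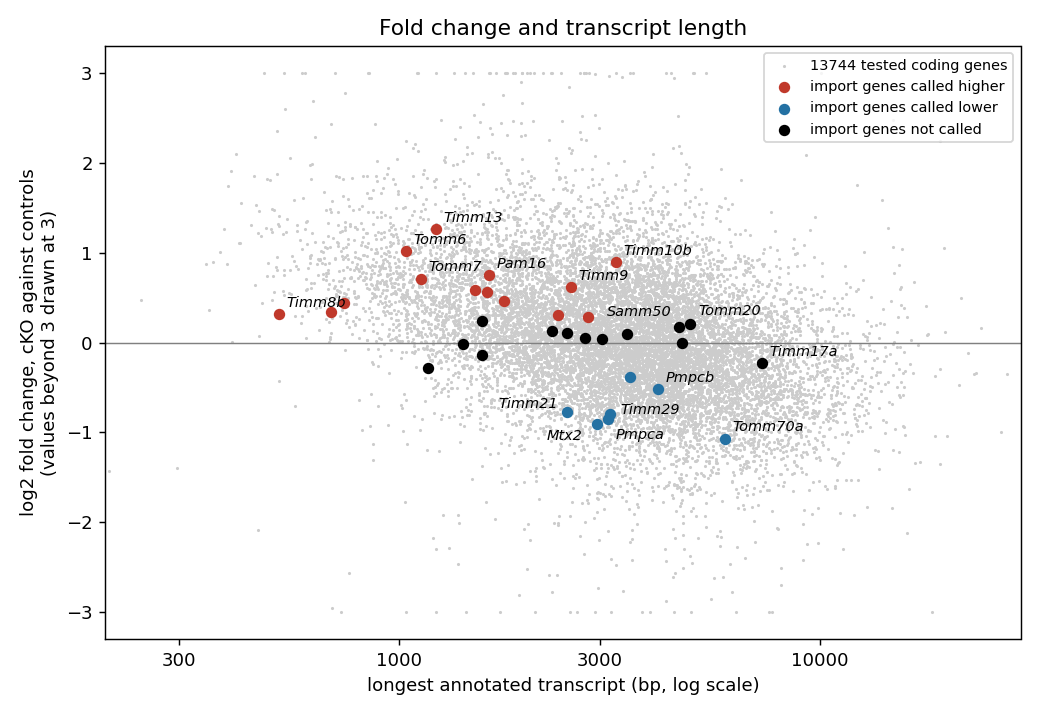
Log2 fold change in cKO against controls (vertical axis, values beyond 3 drawn at 3) against the longest annotated transcript in bp (horizontal axis, log scale). Grey points are 13744 tested coding genes, and large points the import genes, red if called higher, blue if called lower and black if not called. Timm10b rose with a longest transcript of 3273 bp, where 37.9% of coding genes of 3000 bp and over were called lower and 16.4% higher. Timm9, at 2564 bp, is in the class from 1500 to 3000 bp, where 31.9% were called higher and 17.7% lower. All 7 import genes that fell have transcripts of 2503 bp or more.

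In the TOM complex, 3 small subunits rose and the receptor Tomm70a fell, while the channel was not called. Tomm70a, the receptor for carrier proteins and other precursors without a presequence, was at 37.9, 27.2, 35.2 and 29.6 CPM in the cKO hearts, 67.9 and 68.7 CPM in the floxed hearts and 63.8 and 71.9 CPM in the Cre hearts. No cKO heart came near a control, and Tomm70a fell 2.10-fold (log2 fold change -1.07, SE 0.11; edgeR adjusted p = 4.19e-05; -0.70 with the offset). Tomm20, the receptor for presequences, was at 94.3, 83.8, 87.9 and 80.2 CPM in cKO, 78.6 and 73.9 CPM in floxed and 68.4 and 78.5 CPM in Cre hearts. Its cKO values lay just above the controls and did not pass the test (log2 fold change 0.21, SE 0.09; edgeR adjusted p = 0.0657), except without cKO replicate 4 (0.25; edgeR adjusted p = 0.0378), with the offset (0.49; edgeR adjusted p = 0.000588), under upper-quartile scaling or library size alone and with a filter at 1 CPM (edgeR adjusted p = 0.00700, 0.0172 and 0.0365). The ratio of Tomm20 to Tomm70a within a heart, which does not depend on library scaling, was 2.49 to 3.09 in cKO and 1.07 to 1.16 in controls.

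Tomm22, the central receptor that ties the complex together, was at 53.1, 46.2, 59.4 and 54.9 CPM in cKO, 42.8 and 47.9 CPM in floxed and 42.7 and 47.6 CPM in Cre hearts. The groups overlapped through cKO replicate 2, and the difference was not called (log2 fold change 0.24, SE 0.10; edgeR adjusted p = 0.0584) unless that heart was left out (0.31; edgeR adjusted p = 0.0183), under upper-quartile scaling or library size alone, with a filter at 1 CPM or with pooled controls (edgeR adjusted p = 0.00956, 0.0161, 0.0365 and 0.0434). Tomm40, the channel itself, was at 65.8, 62.7, 71.3 and 62.6 CPM in cKO, 67.8 and 66.4 CPM in floxed and 57.1 and 62.2 CPM in Cre hearts. These ranges were mixed (log2 fold change 0.05, SE 0.08; edgeR adjusted p = 0.607), and its relative Tomm40l was at 64.7 CPM in both groups (SD 11.5 in cKO and 1.93 in controls, n = 4 each), though 64.3% of its exon bases are shared with Nr1i3 on the other strand. Tomm34, a cytosolic cochaperone of precursors, was not called either (0.13, SE 0.11).

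The small subunits Tomm5, Tomm6 and Tomm7 stabilise the channel complex and all rose. Tomm6 was at 54.9, 59.1, 55.6 and 74.9 CPM in cKO, 30.9 and 32.0 CPM in floxed and 29.8 and 28.01 CPM in Cre hearts. This 2.03-fold rise (log2 fold change 1.02, SE 0.11; edgeR adjusted p = 4.62e-05) shrank to 0.42 with the offset and stayed called. Other annotated genes, mainly the predicted gene Gm21981 on the same strand, cover 84.2% of its exon bases, so its count is uncertain; Gm21981 itself was at 2.04 CPM in cKO hearts against 1.19 CPM. Tomm7 was at 69.6, 76.2, 79.8 and 84.5 CPM in cKO, 42.4 and 47.4 CPM in floxed and 46.3 and 53.5 CPM in Cre hearts. It rose 1.64-fold without overlap (log2 fold change 0.71, SE 0.09; edgeR adjusted p = 0.000123; 0.48 with the offset). Tomm5, from a transcript of 738 bp, rose 1.36-fold (0.44, SE 0.10; edgeR adjusted p = 0.00289), and with the offset its value was 0.00 (edgeR adjusted p = 0.982).

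Among genes of outer membrane sorting, Mtx2 fell and Mtx1 rose. They encode metaxins, which work beside the barrel insertase Samm50. Mtx2 was at 46.0, 25.5, 40.5 and 33.4 CPM in cKO, 69.0 and 65.3 CPM in floxed and 64.8 and 72.2 CPM in Cre hearts. All cKO hearts were low, replicate 2 lowest, with a 1.87-fold fall (log2 fold change -0.90, SE 0.16; edgeR adjusted p = 0.001; -0.79 with the offset). Mtx1 rose from 14.3 ± 1.38 CPM in controls to 21.1 ± 4.65 CPM (SD, 4 hearts each; log2 fold change 0.57, SE 0.15; edgeR adjusted p = 0.00905), but with the offset it was at -0.06 (edgeR adjusted p = 0.719). Of its exon bases 30.1% are shared with other genes, both on the other strand. The larger part is shared with Gm43737, which was not called (log2 fold change 0.285; edgeR adjusted p = 0.245). The smaller part is shared with Thbs3, which rose as well (log2 fold change 0.88). The ratio of Mtx1 to Mtx2 within a heart was 0.414 and 0.416 in cKO replicates 1 and 3, 0.812 and 0.828 in cKO replicates 2 and 4, and 0.2 to 0.223 in controls. Samm50 was at 217 ± 10.8 CPM in cKO against 192 ± 7.99 CPM and was not called (0.18, SE 0.08; edgeR adjusted p = 0.0997) but was with the offset (0.23; edgeR adjusted p = 0.0417) and under upper-quartile scaling and library size alone.

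To show promoter sequence of genes that fell and of one that rose, stretches upstream of Tomm70a and Mtx2, the largest falls without the offset, and of Timm13, the largest rise without it, are printed from RefSeq (GRCm38.p6), 5′ to 3′ along the gene. With the offset the largest fall was that of Timm29 (-0.80) and the largest rise that of Timm10b (1.01). The stretches were chosen after values and motif matches had been seen, and no link between a promoter and a direction was tested. Each begins 200 bases before the RefSeq start site and ends before the first base of the GENCODE gene. Capitals mark CCGGAAG, the core bound by ETS factors such as GABP, on either strand.
Tomm70a (chr16:57121514-57121702, plus strand): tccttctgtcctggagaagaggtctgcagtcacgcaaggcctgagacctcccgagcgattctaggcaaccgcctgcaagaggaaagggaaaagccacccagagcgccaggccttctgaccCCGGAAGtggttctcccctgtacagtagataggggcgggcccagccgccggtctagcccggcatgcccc
Mtx2 (chr2:74825612-74825802, plus strand): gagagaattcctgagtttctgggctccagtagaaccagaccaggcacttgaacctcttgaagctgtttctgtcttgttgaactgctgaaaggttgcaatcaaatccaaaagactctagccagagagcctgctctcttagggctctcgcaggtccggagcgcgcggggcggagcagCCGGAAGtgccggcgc
Timm13 (chr10:80900970-80901169, minus strand): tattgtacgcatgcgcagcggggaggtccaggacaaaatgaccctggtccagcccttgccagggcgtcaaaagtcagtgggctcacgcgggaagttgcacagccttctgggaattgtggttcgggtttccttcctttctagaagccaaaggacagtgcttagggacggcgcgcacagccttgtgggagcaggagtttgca

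Promoters of 33 of the 36 genes were found in the RefSeq table, and 7 motifs were searched on both strands in the 200 bases before each start. CCGGAAG was present for 4 of 6 genes that fell (Tomm70a, Mtx2, Pmpca and Pmpcb), 3 of 13 that rose (Mtx1, Timm10 and Timm8b) and 4 of 12 not called (Timm23, Tomm22, Tomm34 and Timmdc1), against 11.4% of 13725 windows of tested coding genes and 6.34% of all 32505 windows. The GC box GGGCGG was present for 7 of 13 genes that rose and 4 of 6 that fell (53.7% of the coding windows), and CCAAT for 3 and 1 (30.9%). AAGGTCA, the element of estrogen-related receptors, was found for Timm8b alone (2.16% of the coding windows), and AAGATGG, the YY1 core, for Tomm34 alone (3.03%). The NRF1 core (1.40%) and the cAMP response element TGACGTCA (2.35%) were found for none. None of these motifs contains another, though their ends can overlap, and the windows of Tomm70a, Mtx2 and Pmpca hold both CCGGAAG and a GC box.

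The small TIM chaperones, which guard hydrophobic proteins in the intermembrane space, rose in 5 of 6 tested genes, and none fell, where 25.6% of all genes were called higher. With the offset 3 of the 6 were called higher (20.7% of all genes). Their median longest transcript was 1323 bp, and 60.7% of coding genes with transcripts under 1500 bp were called higher. Timm13, which pairs with Timm8 proteins, was at 77.1, 99.7, 94.1 and 104.6 CPM in cKO, 41.3 and 38.1 CPM in floxed and 38.0 and 38.9 CPM in Cre hearts. Its 2.40-fold rise was the largest among import genes without the offset (log2 fold change 1.27, SE 0.10; edgeR adjusted p = 1.81e-05), and the value with the offset was 0.65 (edgeR adjusted p = 0.000129), below those of Timm10b (1.01) and Timm9 (0.69). Its partner genes did not match it: Timm8a1 was at 13.6 ± 0.971 CPM in cKO against 13.8 ± 1.64 CPM (SD, 4 hearts each; log2 fold change -0.01, SE 0.10), positive under upper-quartile scaling (0.10) and library size alone (0.11). The ratio of Timm13 to Timm8a1 within a heart was 5.82 to 7.45 in cKO and 2.41 to 3.32 in controls. Nkapd1 on the other strand shares 15.6% of the exon bases of Timm8b and was not called (-0.26, edgeR adjusted p = 0.0702). Timm8b rose 1.25-fold (0.32, SE 0.09; edgeR adjusted p = 0.0109), was at -0.26 with the offset (edgeR adjusted p = 0.0728), and lost its call without floxed replicate 1 (edgeR adjusted p = 0.0515) or Cre replicate 1 (0.0557).

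Timm10b, the small TIM that docks on the TIM22 complex, was at 30.6, 37.6, 35.8 and 42.0 CPM in cKO, 19.4 and 20.5 CPM in floxed and 19.2 and 19.5 CPM in Cre hearts. The controls lay close together and every cKO heart lay above them, a 1.86-fold rise (log2 fold change 0.89, SE 0.11; edgeR adjusted p = 7.17e-05). Its longest annotated transcript has 3273 bp, and with the offset the value was 1.01. Annotated exons cover the whole gene, 3582 bp, so the expressed isoform can be shorter, and this value and its rank are uncertain. Other genes share 22.1% of its exon bases, among them Gm45799 on the same strand (376 bases) and Arfip2 on the opposite strand (277 bases). Arfip2 rose from 14.2 to 31.0 CPM (log2 fold change 1.13). With no strand setting given, reads of Timm10b and Arfip2 cannot be told apart where they overlap. For Gm45799 a strand setting would not separate them either.

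Timm9, which builds the hexamer with Timm10, was at 8.995, 11.8, 12.2 and 14.2 CPM in cKO, 6.47 and 7.61 CPM in floxed and 8.24 and 8.57 CPM in Cre hearts. The nearest hearts of the 2 groups differed little (log2 fold change 0.62, SE 0.15; edgeR adjusted p = 0.00439; 0.69 with the offset). Timm10 was called higher (0.34, SE 0.13; edgeR adjusted p = 0.0414) with overlapping groups. That call ended without cKO replicate 1 (edgeR adjusted p = 0.103) or 3 (0.101), without either floxed replicate (0.119 and 0.0966) and without Cre replicate 1 (0.158), and with pooled controls (0.0766) or limma voom (limma adjusted p = 0.0509). With the offset Timm10 was at -0.29 (edgeR adjusted p = 0.160). The ratio of Timm10 to Timm9 overlapped between cKO (1.89 to 4.09) and control hearts (2.90 to 3.77).

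At the TIM22 complex, which inserts carrier proteins into the inner membrane, the accessory subunit Timm29 fell while the channel gene Timm22 rose slightly. Timm29 was at 42.5, 33.6, 39.0 and 35.2 CPM in cKO, 70.3 and 63.8 CPM in floxed and 61.5 and 64.9 CPM in Cre hearts. The groups were far apart, with a 1.73-fold fall (log2 fold change -0.79, SE 0.09; edgeR adjusted p = 7.55e-05) that the offset left at -0.80. Timm22 was at 26.9, 27.5, 26.5 and 26.7 CPM in cKO, 24.6 and 21.8 CPM in floxed and 20.9 and 21.2 CPM in Cre hearts. Its 1.22-fold rise (0.28, SE 0.08; edgeR adjusted p = 0.0139; 0.30 with the offset) lost its call without floxed replicate 2 (edgeR adjusted p = 0.0849) and without Cre replicate 2 (0.0514), and with no filter on low counts (0.0528). The ratio of Timm22 to Timm29 within a heart was 0.634 to 0.819 in cKO and 0.327 to 0.350 in controls. The transcripts have similar lengths, 2817 and 3170 bp.

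**Figure D3:**
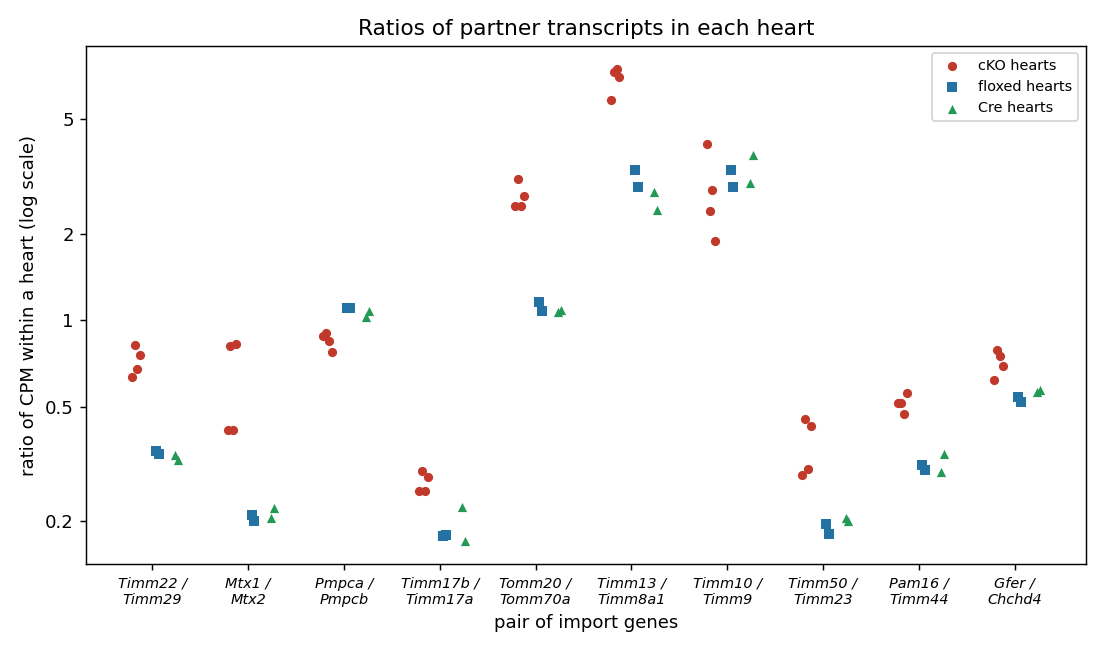
Ratio of the CPM of 2 import genes within each heart (vertical axis, log scale) for 10 pairs (horizontal axis). Circles are cKO hearts, squares floxed and triangles Cre hearts. For Timm22 over Timm29 the cKO hearts lie between 0.634 and 0.819 and the controls between 0.327 and 0.350. The groups overlap for Timm10 over Timm9 and not for the other pairs. Pairs were chosen after the data were seen, the ratios carry no offset, and the share among other gene pairs was not computed. For single genes, all cKO hearts lay above all controls for 23.4% of all genes and below them for 25.9%.

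The TIM23 complex, the gate for presequence proteins, had 2 genes that rose, 1 that fell and 2 not called. Timm50, its receptor in the intermembrane space, was at 43.6, 46.8, 48.3 and 50.6 CPM in cKO, 31.6 and 30.1 CPM in floxed and 31.2 and 33.7 CPM in Cre hearts. It rose without overlap (log2 fold change 0.58, SE 0.08; edgeR adjusted p = 0.000200), and its value was 0.04 with the offset (edgeR adjusted p = 0.692). Timm23, the channel, was at 150.4, 103.5, 159 and 118 CPM in cKO, 161 and 166 CPM in floxed and 152 and 168 CPM in Cre hearts. Replicates 2 and 4 were low, replicate 1 lay just below the controls and replicate 3 among them, and the difference was not called (-0.29, SE 0.13; edgeR adjusted p = 0.0926). Its value passed the test without cKO replicate 1 (-0.36; edgeR adjusted p = 0.0457) or 3 (-0.38; edgeR adjusted p = 0.0402), with no filter on low counts (edgeR adjusted p = 0.0427) and with the offset (-0.57; edgeR adjusted p = 0.00496).

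Timm17a and Timm17b encode alternative partners of Timm23 in the channel. Timm17a was at 96.1, 77.8, 96.2 and 86.8 CPM in cKO, 106 and 108 CPM in floxed and 95.4 and 109 CPM in Cre hearts. The groups overlapped slightly and the difference was not called (log2 fold change -0.23, SE 0.10; edgeR adjusted p = 0.0621), except without cKO replicate 1 (-0.28; edgeR adjusted p = 0.0284) and with pooled controls (edgeR adjusted p = 0.0489). With the offset it turned to 0.23, also not called, its longest transcript being 7280 bp. Timm17b was at 24.4, 23.3, 24.4 and 24.6 CPM in cKO, 18.8 and 19.3 CPM in floxed and 21.4 and 18.7 CPM in Cre hearts. It rose 1.24-fold (0.31, SE 0.09; edgeR adjusted p = 0.0118), and lost the call with the offset (0.18; edgeR adjusted p = 0.0867), without floxed replicate 1 (edgeR adjusted p = 0.0545) and without Cre replicate 2 (0.0736). Timm21, which links the complex to the TOM channel and to respiratory subunits, was at 18.8, 10.8, 14.3 and 13.6 CPM in cKO, 23.9 and 24.0 CPM in floxed and 24.6 and 25.8 CPM in Cre hearts. It fell 1.71-fold, most in replicate 2 (-0.77, SE 0.15; edgeR adjusted p = 0.00120; -0.72 with the offset).

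In the matrix motor, which pulls precursors in with the heat shock protein mtHsp70, Pam16 rose, Grpel1 was called lower and Timm44 and Dnajc19 were not called. Pam16, which holds the motor's J protein at the channel, was at 35.5, 36.1, 36.3 and 42.1 CPM in cKO, 22.7 and 21.3 CPM in floxed and 20.96 and 24.1 CPM in Cre hearts. All cKO hearts were high, with a 1.69-fold rise (log2 fold change 0.75, SE 0.09; edgeR adjusted p = 9.36e-05; 0.46 with the offset). Glis2 on the other strand shares 18.7% of the exon bases of Pam16 and was higher in cKO (0.42, edgeR adjusted p = 0.0121). Timm44, the scaffold that joins motor and channel, was at 69.1, 70.2, 76.8 and 75.4 CPM in cKO, 72.3 and 70.5 CPM in floxed and 70.5 and 70.1 CPM in Cre hearts. These were mixed (0.04, SE 0.08; edgeR adjusted p = 0.683). Grpel1, the nucleotide exchange factor of mtHsp70, was at 64.3 ± 14.3 CPM in cKO against 83.5 ± 5.11 CPM (SD, 4 hearts each; -0.38, SE 0.14; edgeR adjusted p = 0.0415), with cKO replicate 1 at 85.0 CPM among the controls. Its call ended when any library but cKO replicate 1 was left out, with edgeR adjusted p values of 0.115, 0.0968 and 0.0962 without cKO replicates 2, 3 and 4, 0.108 and 0.0678 without floxed replicates 1 and 2, and 0.0502 and 0.101 without Cre replicates 1 and 2. It was also lost under upper-quartile scaling, library size alone, a filter at 1 CPM and the offset (edgeR adjusted p = 0.120, 0.213, 0.0501 and 0.180). Tada2b on the other strand shares 11.6% of the exon bases of Grpel1 and was lower in cKO (-0.95, edgeR adjusted p = 0.000148). Dnajc19, a J protein of the inner membrane, was at 36.7 ± 6.37 and 34.0 ± 1.69 CPM (0.11, SE 0.12).

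Both subunits of the matrix processing peptidase fell, and both falls remained with the offset. Pmpca, the substrate-binding subunit, was at 84.5, 65.4, 81.8 and 61.5 CPM in cKO, 144.6 and 135 CPM in floxed and 116 and 134 CPM in Cre hearts. No heart of 1 group reached the other, a 1.81-fold fall (log2 fold change -0.85, SE 0.12; edgeR adjusted p = 0.000166; -0.77 with the offset). Pmpcb, the catalytic subunit, was at 95.5, 72.2, 96.2 and 79.5 CPM in cKO, 131 and 123 CPM in floxed and 114 and 124 CPM in Cre hearts. It fell 1.43-fold, also without overlap (-0.52, SE 0.11; edgeR adjusted p = 0.00218; -0.30 with the offset, edgeR adjusted p = 0.0284). The ratio of Pmpca to Pmpcb was 0.774 to 0.906 in cKO and 1.03 to 1.10 in controls. Inpp5e on the other strand shares 20.4% of the exon bases of Pmpca and was higher in cKO (0.30; edgeR adjusted p = 0.0294).

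In the disulfide relay, Gfer, the oxidase, rose from 10.3 ± 0.996 CPM in controls to 14.2 ± 1.20 CPM (SD, 4 hearts each; log2 fold change 0.47, SE 0.11; edgeR adjusted p = 0.00436), but not with the offset (0.11; edgeR adjusted p = 0.414). Chchd4, the import receptor it reoxidises, was at 19.96 ± 1.56 and 18.7 ± 1.19 CPM and was not called (0.09, SE 0.10). Timmdc1, a Timm symbol whose product works in the assembly of respiratory complex I rather than in import, was at 31.5 ± 2.89 CPM in cKO against 34.7 ± 2.29 CPM (-0.14, SE 0.09), and was called lower with the offset (-0.40; edgeR adjusted p = 0.00327).

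**Figure D4:**
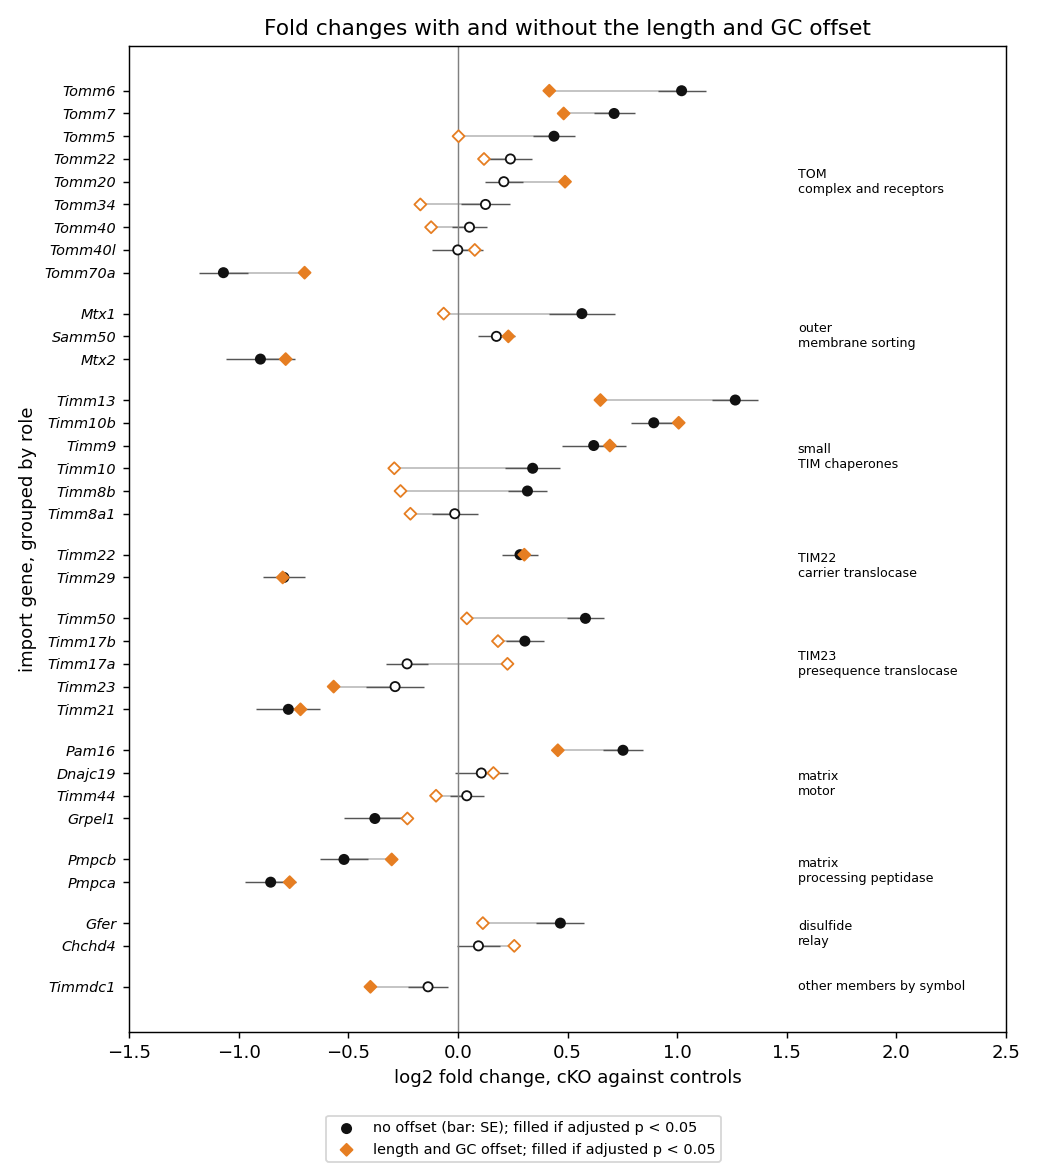
Log2 fold change of each import gene in cKO against controls (horizontal axis), without an offset (circles, bars are standard errors) and with the offset for transcript length and GC content (diamonds), with genes grouped by role (vertical axis). Filled symbols have an adjusted p under 0.05. Tomm5, Mtx1, Timm10, Timm8b, Timm50, Timm17b and Gfer are filled without the offset and open with it, while Tomm70a, Mtx2, Timm29, Timm21, Pmpca and Pmpcb are filled with both.

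Of the 21 called genes 12 kept direction and call under all 19 alternatives, the rises of Timm13, Tomm6, Timm10b, Pam16, Tomm7 and Timm9 and the falls of Tomm70a, Mtx2, Pmpca, Timm29, Timm21 and Pmpcb. The share of all called genes that did so was not computed. Between cKO hearts the size differed. Replicate 2 was lowest for 6 of the 7 genes that fell, and replicate 1 nearest to the controls for 6 of them. Replicate 4 was highest for 11 of the 14 genes that rose, and replicate 1 nearest to the controls for 8. These counts cover import genes only. The same counts over all called genes were not made, so whether they are particular to import genes was not tested.

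Each control group was also taken alone, in comparisons that share the cKO hearts. Against floxed hearts 13 import genes were called higher and 6 lower (19.8% and 23.1% of all genes, 42.9% together), and against Cre hearts 11 and 6 (19.6% and 22.8%, 42.4% together). With the offset 7 were higher and 8 lower against floxed (15.2% and 20.7%) and 8 and 7 against Cre (14.3% and 19.9%). Without the offset, 10 import genes were called higher and 6 lower against both, a count whose share over all genes was not computed. Without cKO replicate 4 or either floxed replicate, 7 were higher against Cre, and without Cre replicate 1 or 2 there were 6. Without floxed replicate 1 or 2, 8 and 7 were higher against floxed. Over all genes, rises against Cre also went from 2997 of 15289 to 2804 of 15113 without cKO replicate 4. Tomm70a had a log2 fold change of -1.07 against floxed and -1.06 against Cre, Pmpca -0.93 and -0.77, Timm13 1.24 and 1.29, and Timm10 0.54 and 0.15. Between Cre and floxed hearts no import gene was called by edgeR, DESeq2 or limma voom (0.0981% of all genes called by edgeR). The log2 fold changes ran from -0.17 (Tomm40) to 0.39 (Timm10). In the main edgeR fit no import gene had an unadjusted p under 0.05. Under upper-quartile scaling, library size alone or no filter on low counts 1 did. Among the other fits that kept both libraries of each control group, 1 did without cKO replicate 1 or 4, and with only the groups compared.

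Compared per length (CPM per kb of the longest annotated transcript), the most abundant import transcripts of control hearts were Timm23 at 138, Timm8b at 105.5 and Tomm5 at 80.2, and the least abundant were Timm9 at 3.01, Chchd4 at 5.39 and Gfer at 5.79. The same 3 genes led the order when all annotated exon bases were used as length, with Timm8b first, while the lowest 3 were then Timm9 at 1.80, Chchd4 at 3.60 and Mtx1 at 3.98, with Gfer next at 4.61. Since the expressed isoform can be shorter than the longest one, this order is approximate.

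Among 38 other genes of import and mitochondrial protein quality control, all tested, 6 rose (15.8%) and 19 fell (50%), where 25.6% and 26.5% of all genes were called, with a median log2 fold change of -0.26. With the offset 2 were called higher and 21 lower (20.7% and 24.3% of all genes), with a median of -0.37. The smallest p values among the falls were those of Pitrm1, which degrades cleaved presequences (log2 fold change -1.07, SE 0.08; edgeR adjusted p = 1.74e-05), Clpx, the unfoldase of the matrix protease ClpP (-1.08, SE 0.10), Xpnpep3, an aminopeptidase that trims imported proteins (-1.22, SE 0.12), and Atad1, which extracts misplaced tail-anchored proteins (-1.31, SE 0.14). Hspa9, which encodes mtHsp70, fell from 628 to 351 CPM (-0.84, SE 0.10). The rises with the smallest p were those of Romo1, a small inner membrane protein (0.85, SE 0.09), the nascent chain factor Btf3 (0.57, SE 0.10), Clpp, the protease itself (0.55, SE 0.11), and Mtch1, a paralogue of the outer membrane insertase Mtch2 (0.45, SE 0.10). With the offset these 4 were at -0.14, 0.17, -0.14 and 0.11 and none was called, whereas the 4 falls stayed called.

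Over the 8 hearts, the coding genes whose log2 CPM was most like that of Tomm70a, of 12427 compared, were Clic4, Ndufs1, Msi2, Csnk1a1 and Pdha1 (Pearson's r 0.9988 to 0.9979, a description over hearts that form separate groups). Their log2 fold changes were -0.97, -1.31, -1.28, -0.87 and -1.32. These falls follow from the selection, since Tomm70a itself separates cKO from control hearts, and are no separate result.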

How the data were processed

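Gene-level expected counts for 8 libraries were deposited by the authors in a single table. Per the submitters' processing notes, the builds were mm10 and GRCm38 and the tools STAR 2.5.1b and DESeq2. No counting program, annotation or strand setting is given in the sources used here. Expected counts were rounded and filtered with filterByExpr, leaving 15289 genes. All libraries were fitted with 3 group means (5 residual degrees of freedom) in edgeR 4.0.16 (R 4.3.3), with trimmed mean of M values scaling and robust quasi-likelihood tests. Each heart is 1 library, and p values measure the spread between these libraries, which may be technical. SE comes from the test statistic.

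The offset was a smooth function of log2 length and GC content of the longest GENCODE M21 transcript in each library (mgcv 1.9.3), available for 15216 genes (99.5%). Where the expressed isoform is shorter than the longest one, the value with the offset is uncertain. Other alternatives were median-ratio, upper-quartile and no scaling, DESeq2 1.42.0, limma voom (3.58.1), other filters, no robust estimation, a replicate block, pooled controls, fits of the groups compared and leaving out each library. Import genes, lists and the rule for named genes (every member, with values per heart for the 6 largest rises and falls and 10 receptor and channel genes) were chosen with earlier results of these data known. The fitting procedures were tested on simulated counts. Hspa9 and the genes that overlap import genes were named after their values were seen. Partner ratios, length classes and promoter motifs were chosen after seeing the data. Figures used matplotlib 3.10.9.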

Additional observations from a re-analysis of the deposited data

Results flagged for a closer look

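In cKO hearts the lowest Tomm5 value (69.8 CPM, replicate 2) lay far from the other 3 hearts, which held 82.3, 83.6 and 84.1 CPM. The highest Pam16 value (42.1 CPM, replicate 4) likewise stood apart from 35.5, 36.1 and 36.3 CPM. Both genes stayed called higher without that heart. Groups of 4 were examined for 34 genes, and chance marks about 1 in 20 of them. No import gene differed between Cre and floxed hearts by the test of that difference.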

How the results depend on the processing

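Counts of called import genes stayed within 1.5 times except for rises. With the length and GC offset 9 were higher against controls and 7 against floxed. Against Cre 7 were higher with the replicate block and 7 with only the groups compared in the fit (2368 of 15289 and 2677 of 15082 of all genes). Leaving out 1 library gave 6 to 10 rises against Cre, 7 to 14 against floxed and 11 to 15 against controls. Some values changed sign. With the offset Timm17a was at 0.23, Tomm34 at -0.17, Tomm40 at -0.12, Timm44 at -0.10, Mtx1 at -0.065, Timm10 at -0.29 and Timm8b at -0.26. Timm44 was at -0.026 with the replicate block. Timm8a1 was at 0.10 under upper-quartile scaling, 0.11 with library size alone and 0.011 with a filter at 1 CPM. Leaving out 1 library moved Timm8a1 between -0.081 and 0.0285 (positive without cKO replicate 3 or Cre replicate 2) and Dnajc19 between -0.0070 (without cKO replicate 1) and 0.21. Tomm40l, at -0.0004 on all hearts, was at 0.0034 with median-ratio scaling and with DESeq2, 0.11 under upper-quartile scaling, 0.13 with library size alone, 0.0245 with a filter at 1 CPM and 0.0771 with the offset, and between -0.13 and 0.0537 without 1 library. None of these was called. Of 646 single-gene values 568 kept direction and side of the threshold. The cause of the other changes was not tested.

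Upper-quartile scaling and library size alone moved the median of all genes from 0.04 to 0.16 and 0.17, and the share of rises among all calls from 49.1% to 59.3% and 61.5% (import genes 66.7% to 73.9% and 73.9%). The replicate block used the replicate numbers of the sample titles, which for floxed hearts differ from the numbers in the library names. Deviations from group means of same-numbered libraries correlated at -0.11 to 0.13. Within each control group the deviations of the replicates mirror each other, so these values cannot decide whether same-numbered libraries belong together. Pairing by the numbers in the library names was not tested. With the replicate block 11 import genes were higher and 6 lower against controls, and Timm22, Timm17b, Timm10 and Grpel1 were not called. Of all 15289 genes 3007 were then higher and 3365 lower, where the main fit gave 3909 and 4050.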
